A study of Mus musculus with 7 samples.

Results

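The 7 genes Dazl, Mael, Sycp1, Sycp3, Stk31, Hormad1 and Ddx4 were examined, of 22556 genes counted in the series. They were taken by name, because they are germline genes whose promoters are known to be methylated in somatic cells. The rule used no measured value, but earlier results of these data were known when the genes were chosen. All 7 had fragments in every library and all 7 passed the filters of every test. DNA methylation was not measured, so their methylation state in these cells is not known, and the fragments in every library mean that they cannot be called silent here. They are called the 7 germline genes below.

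Chromatin-associated RNA sequencing (ChrRNA-seq), which reads RNA still bound to chromatin and so mostly unspliced transcripts, was analysed in undifferentiated female mouse embryonic stem cells (mESCs). Both lines derive from the same F1 line, a cross of a laboratory strain of Mus musculus domesticus, 129/Sv (called Dom), with a wild-derived Mus musculus castaneus strain, CAST/EiJ (called Cast). In iXist-ChrX-Dom (n = 4 libraries) a TetOn promoter drives Xist, the RNA that silences an X chromosome, from the Dom X, and in iXist-ChrX-Cast (n = 3) from the Cast X. Each line carries the name of a single clone in the labels, and every library came from cells kept 10 days in 1 µg/mL doxycycline, so no uninduced cells were compared here. None of the 7 genes is on the X chromosome. The cells had been grown on inactivated mouse fibroblasts. Before the experiments they were pre-plated, a step in which the fibroblasts attach preferentially, and complete removal is not stated.

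Some labels bear on these groups. For replicates 3 and 4 of iXist-ChrX-Dom, the sample description reads d1 where title and induction field read 10 days, and the latter was used. In iXist-ChrX-Cast, the files of replicates 1 and 2 are named after another clone than their labels give. The files follow 2 naming schemes that part replicates 1 and 2 of both lines (the first naming set, 4 libraries) from replicates 3 and 4 (the second, 3 libraries). The labels name no batch. The iXist-ChrX-Dom libraries are called replicate experiments in the study, and neither the labels nor the methods say which replicates were separate cultures, so p-values measure only the spread between these libraries, part of which may be technical.

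Libraries held 14877384 to 24309806 counted fragments, of which 44.2% to 46.4% were assigned to a parental genome. The 6 stem cell markers, among them Pou5f1 and Nanog, summed to 1130 to 1467 counts per 1000000 fragments (CPM) and each was counted in every library. Their sum was 1130 to 1361 CPM in the first naming set and 1441 to 1467 CPM in the second. The 8 feeder fibroblast markers summed to 24.6 to 37.0 CPM in iXist-ChrX-Dom and 28.2 to 38.1 CPM in iXist-ChrX-Cast, and 7 of 8 were counted in every library. The 5 primitive endoderm markers summed to 13.0 to 25.5 and 21.6 to 26.9 CPM in the 2 lines. Of 6 genes of later male germ cells, the protamine genes Prm1 and Prm2 and the transition protein genes Tnp1 and Tnp2 had 0 fragments in every library, where 3 counts would be 0.123 to 0.202 CPM. Acr and Acrv1 complete this list, and 1 of the 6 genes was counted in every library. The list summed to 0.459 to 0.691 CPM in iXist-ChrX-Dom and 0.351 to 0.510 CPM in iXist-ChrX-Cast. The 5 markers of 2-cell-like cells, a rare state in mESC cultures, summed to 27.5 to 51.4 CPM in iXist-ChrX-Dom and 26.9 to 38.3 CPM in iXist-ChrX-Cast. In bulk libraries, more cells that express a gene and more RNA per cell cannot be told apart.

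Germline genes of this kind are kept off outside the germline by methylation of CpG-rich promoters. Before methylation is laid down, the variant Polycomb complex PRC1.6 represses many of them, through E2F6, which binds TCCCGC, and through the MGA and MAX pair, which binds the E-box CACGTG. Their activation follows promoter demethylation in primordial germ cells, the embryonic precursors of eggs and sperm. Their products serve 2 broad roles. Sycp1, Sycp3 and Hormad1 encode parts of the meiotic chromosome axis and the synaptonemal complex, which holds homologous chromosomes together. Dazl and Ddx4 encode germ cell RNA-binding proteins, a translational regulator and an RNA helicase. Mael encodes a germ granule protein of the piRNA pathway, the small-RNA defence against transposons, and Stk31 a germ cell protein with a Tudor and a kinase domain.

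The promoters were read first, because the family is known for being regulated there. Windows of 250 bases before to 50 bases from the annotated start site were taken from RefSeq (GRCm38.p6), and all 7 genes matched an entry that starts at the counted interval. Each window held 15 (Sycp3) to 38 (Ddx4) CpG dinucleotides, against a median of 7 over the 32817 distinct windows of the table. TCCCGC or its reverse complement was found in 5 of 7 windows, and 20.0% of all windows held it. CACGTG, which reads the same on both strands, was found in 6 of 7, and 7.15% of all windows held it. Both motifs stood in 5 of 7, against 1.99% of all windows, and no matches overlapped. Each motif holds a CpG, and the windows compared were not matched for CpG count, so these shares are no test of motif enrichment. Dazl had neither in this window and Stk31 had CACGTG alone. Sycp3 and Hormad1 each had a pair of CACGTG matches, which in Hormad1 began 57 and 20 bases before the start site. A match is a description of the letters, not of binding. The windows of Mael and Sycp1 are shown because these genes had the largest differences between alleles, and that of Ddx4 because it had the most CpG dinucleotides and its allele difference did not pass the test. They lie at chr1:166238695-166238994, chr3:102936051-102936350 and chr13:112652261-112652560, all on the minus strand, and are written 5′ to 3′ of the gene with both motifs in capitals. The sequence is that of the reference strain and holds neither the 129/Sv nor the CAST/EiJ variants.
Mael: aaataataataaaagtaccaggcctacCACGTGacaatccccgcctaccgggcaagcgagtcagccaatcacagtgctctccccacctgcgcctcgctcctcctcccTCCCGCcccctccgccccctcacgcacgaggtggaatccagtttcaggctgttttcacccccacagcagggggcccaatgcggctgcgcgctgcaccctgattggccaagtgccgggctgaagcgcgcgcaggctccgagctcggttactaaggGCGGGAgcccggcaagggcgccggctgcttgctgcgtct
Sycp1: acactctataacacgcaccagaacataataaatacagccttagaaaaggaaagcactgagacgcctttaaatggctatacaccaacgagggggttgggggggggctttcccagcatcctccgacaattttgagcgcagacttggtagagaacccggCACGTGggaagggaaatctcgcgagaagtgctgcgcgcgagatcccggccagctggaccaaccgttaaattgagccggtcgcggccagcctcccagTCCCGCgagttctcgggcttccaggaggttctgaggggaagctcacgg
Ddx4: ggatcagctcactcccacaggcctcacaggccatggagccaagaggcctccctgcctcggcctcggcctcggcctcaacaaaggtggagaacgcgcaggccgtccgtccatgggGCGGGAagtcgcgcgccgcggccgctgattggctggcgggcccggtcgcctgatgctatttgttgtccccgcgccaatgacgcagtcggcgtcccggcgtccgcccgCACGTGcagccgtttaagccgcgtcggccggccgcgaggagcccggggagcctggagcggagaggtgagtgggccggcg

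**Figure D1:**
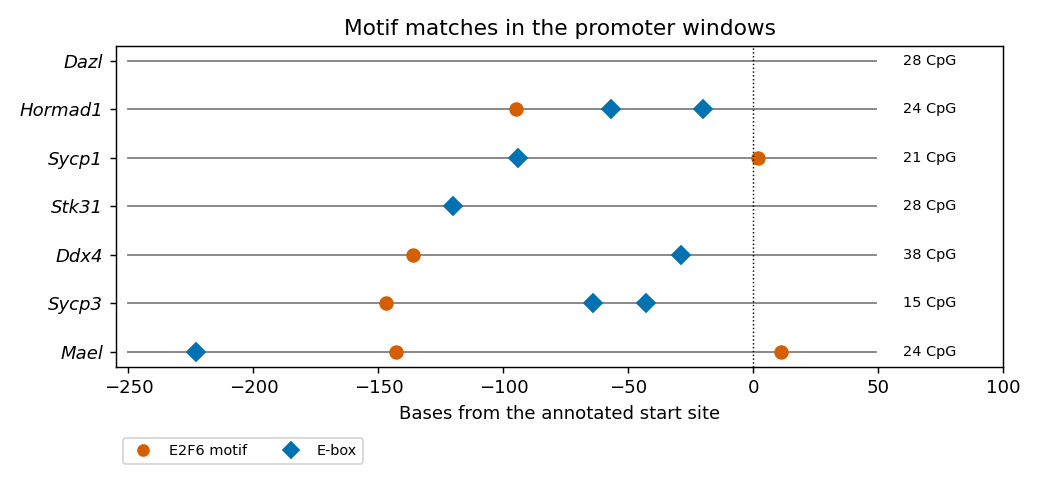
Motif matches in the promoter windows of the 7 germline genes, by distance from the annotated start site in bases (dotted line, first base of each match). Circles are E2F6 motifs, diamonds E-boxes, and the number at the right is the count of CpG dinucleotides, from 15 in Sycp3 to 38 in Ddx4. Dazl has no match.

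The first question was how much chromatin-associated RNA each gene gave. Levels between genes were compared as CPM per kilobase of the counted interval, introns included, after scaling libraries by the trimmed mean of M values (TMM). Percentiles rank all 22556 genes, of which 15186 passed the filter on low counts, so genes with few or no fragments are ranked too. Dazl was highest at 1.29 ± 0.186 CPM per kb (SD, n = 7), at the percentile 74.0 of all 22556 genes. Hormad1 followed at 0.833 ± 0.113, at percentile 67.1. The ranges of these genes over the libraries, 0.977 to 1.49 and 0.640 to 0.940 CPM per kb, did not overlap, nor did that of Hormad1 with the next.

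Sycp1 (0.443 ± 0.0915 CPM per kb), Stk31 (0.423 ± 0.0762), Ddx4 (0.382 ± 0.0424), Sycp3 (0.307 ± 0.0644) and Mael (0.226 ± 0.110) came below, at percentiles 58.7 to 51.2 of all genes. The ranges of neighbours in this order overlapped over the 7 libraries. Within libraries, Sycp3 and Mael were below Sycp1, Stk31 and Ddx4 in 7 of 7, and Mael below Sycp3 in 6 of 7. Sycp1 was above Stk31 in 5 of 7 and Stk31 above Ddx4 in 5 of 7, so the order of these 3 was not the same in every library. The counted intervals run from 13.7 kb (Sycp3) to 118 kb (Sycp1), and on the scale of CPM without length Sycp1 had the most fragments of the 7, at 52.1 ± 10.8 CPM, and Sycp3 the fewest, at 4.19 ± 0.879 CPM. Only Sycp3 shares bases with another counted gene, the end of Chpt1 on the opposite strand.

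The second comparison asked whether the lines differ. Mael was higher in iXist-ChrX-Cast, and the other 6 genes did not pass the test, although all 7 fitted differences had that direction. Of 15186 genes tested, 2.92% were called in either direction and 1.72% as lower in iXist-ChrX-Dom, beside 1 of 7 here (edgeR's quasi-likelihood test, Benjamini-Hochberg adjusted p under 0.05). The median difference of the 7 genes was -0.34 on the log2 scale, and that of all genes tested 0.00. At an unadjusted p under 0.05, 3 of the 7 passed, beside 2638 of all 15186 genes. The latter is the background of every unadjusted count between the lines below.

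Mael (chr1:166201385-166238744, minus strand) had 7.10, 6.71, 4.37 and 3.83 CPM in iXist-ChrX-Dom replicates 1 to 4. It had 13.4, 14.2 and 9.67 CPM in iXist-ChrX-Cast replicates 1 to 3. The groups did not overlap, and in both lines replicates 1 and 2 were above the others. The means were 5.50 ± 1.64 CPM (SD, n = 4) and 12.4 ± 2.4 CPM (n = 3), a log2 difference of -1.16 ± 0.24 (SE) with an adjusted p of 0.0377 in edgeR. Within the first naming set alone, 2 libraries against 2, the log2 difference was -0.99 ± 0.17 and the adjusted p 0.00405. The adjusted p was 0.000109 with a replicate block and 9.64e-05 with the naming set as a covariate. It was above 0.05 without iXist-ChrX-Dom replicate 2 (0.0617), 3 (0.105) or 4 (0.0803), and without iXist-ChrX-Cast replicate 1 (0.111) or 2 (0.203), while the log2 difference stayed between -1.31 and -1.02. The other 905 tested genes of chromosome 1 had a median log2 difference of -0.15, and the 64 within 5 Mb of Mael one of -0.20. The feeder and endoderm sums given above overlapped between the lines. No feeder or endoderm marker was called between the lines in edgeR or DESeq2 (1 feeder and 0 endoderm markers at an unadjusted p under 0.05), but with a replicate block S100a4 and Pdgfra, a marker of each, were called as lower in iXist-ChrX-Dom (log2 differences -0.82 and -0.60). The 6 stem cell markers summed to 1130 to 1467 CPM in iXist-ChrX-Dom and 1252 to 1444 CPM in iXist-ChrX-Cast. Of these 6, 1 was called as lower in iXist-ChrX-Dom in edgeR, and DESeq2 called 2. Their median log2 difference was -0.21, with 3 at an unadjusted p under 0.05. With a replicate block 2 were called as lower, and with the naming set as a covariate 2 as lower and 1 as higher. The part of all these markers in the difference of Mael was not tested.

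**Figure D2:**
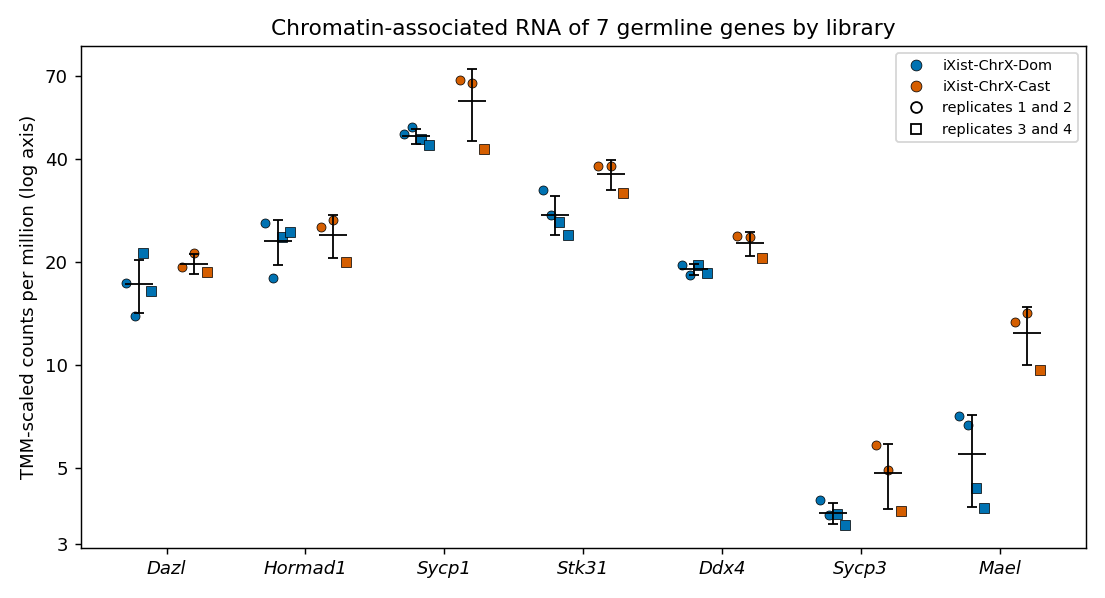
TMM-scaled CPM of the 7 germline genes in each library (log axis), ordered by level per kilobase. Points are libraries, circles replicates 1 and 2 and squares replicates 3 and 4, and bars show the mean and SD of each line. Mael and Ddx4 are the genes whose lines do not overlap, with Mael at 3.83 to 7.10 in iXist-ChrX-Dom and 9.67 to 14.2 in iXist-ChrX-Cast.

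Ddx4 (chr13:112598333-112652310), the other gene of the 7 whose lines did not overlap, had 19.6, 18.3, 19.7 and 18.6 CPM in iXist-ChrX-Dom and 23.9, 23.7 and 20.6 CPM in iXist-ChrX-Cast. The lowest iXist-ChrX-Cast library stood just above the highest of the other line. The log2 difference was -0.25 ± 0.12 with an adjusted p of 0.302 in edgeR. Of all genes tested, 16% did not overlap between the lines, beside 2 of 7 here.

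Stk31 (chr6:49395604-49469502) had 32.5, 27.6, 26.2 and 24.0 CPM in iXist-ChrX-Dom and 38.3, 38.1 and 31.9 CPM in iXist-ChrX-Cast. The lines overlapped by a single library on each side. Its log2 difference was -0.39 ± 0.14 with an adjusted p of 0.166 in edgeR. With the naming set as a covariate it was -0.35 ± 0.10 and passed, at an adjusted p of 0.0218, in a fit that called 15.8% of all genes.

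Sycp1 (chr3:102818499-102936100) encodes the transverse filament of the synaptonemal complex. It had 47.3, 49.7, 45.8 and 43.9 CPM in iXist-ChrX-Dom and 68.2, 66.7 and 42.9 CPM in iXist-ChrX-Cast. Replicates 1 and 2 of iXist-ChrX-Cast were the highest libraries and replicate 3 was the lowest of all 7. The log2 difference of -0.34 ± 0.16 had an adjusted p of 0.288 in edgeR, which became 0.0178 without iXist-ChrX-Cast replicate 3 and 0.0167 within the first naming set.

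The remaining genes were closer to equal. Sycp3 (chr10:88459587-88473236), a component of the chromosome axis, had 3.42 to 4.03 CPM in iXist-ChrX-Dom and 3.76 to 5.84 CPM in iXist-ChrX-Cast. Its log2 difference was -0.38 ± 0.20 (adjusted p = 0.357, edgeR), estimated from 67 to 97 fragments a library. Dazl (chr17:50279393-50293620) had 13.9 to 21.2 and 18.8 to 21.3 CPM, with a log2 difference of -0.20 ± 0.16 (adjusted p = 0.569, edgeR). Hormad1 (chr3:95559677-95587860), which marks unsynapsed chromosome axes, had 18.0 to 26.0 and 20.1 to 26.5 CPM, with a log2 difference of -0.06 ± 0.16 (adjusted p = 0.903, edgeR), whose sign turned when iXist-ChrX-Dom replicate 2 or iXist-ChrX-Cast replicate 2 was left out.

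**Figure D3:**
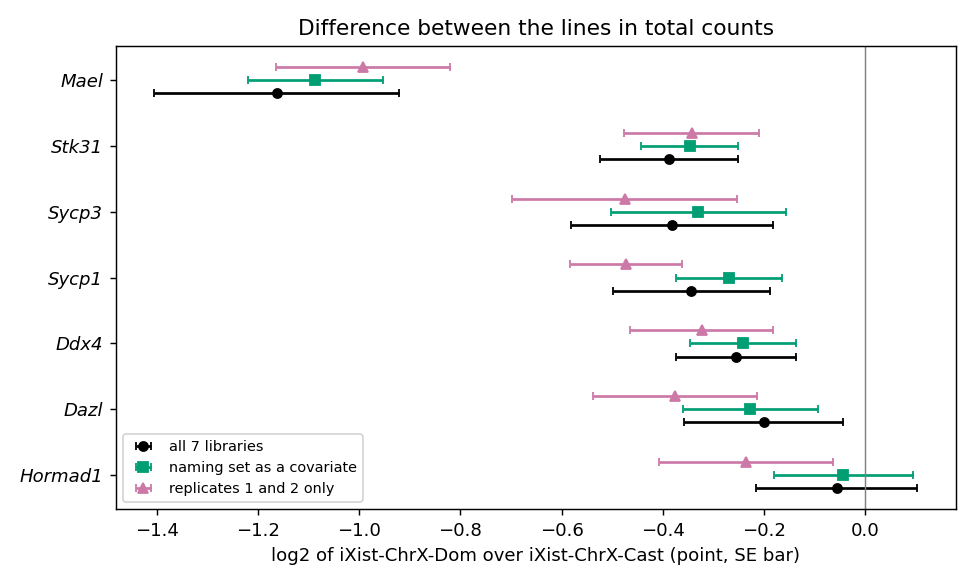
Fitted log2 difference of iXist-ChrX-Dom over iXist-ChrX-Cast in total counts for the 7 germline genes, with SE bars. Circles use all 7 libraries, squares add the naming set as a covariate, and triangles use replicates 1 and 2 only. All points lie below 0, with Mael between -1.16 and -0.99.

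The naming sets were compared in the same way, within lines. Mael was lower in the second set, by a log2 difference of -0.64 ± 0.14 (adjusted p = 0.00283, edgeR), and so was Sycp1, at -0.32 ± 0.11 (adjusted p = 0.0300). Of 15186 genes tested, 4606 were called between the sets in either direction. As lower in the second set, 14% of all were called, beside 2 of 7 here. For Sycp1 the libraries of the sets did not overlap, at 47.3 to 68.2 and 42.9 to 45.8 CPM. How many of all genes do so between the sets was not counted. The call of Sycp1 was lost without iXist-ChrX-Cast replicate 1 (adjusted p = 0.0514), 2 (0.0691) or 3 (0.500), the last at a log2 difference of -0.11. Stk31 was at -0.26 ± 0.10 with an adjusted p of 0.0550, and Sycp3, Ddx4, Hormad1 and Dazl were at -0.27, -0.07, -0.06 and 0.12 and did not pass. Some cell type markers were among the 4606 genes called between the sets. Of 4 primitive endoderm markers tested, Gata4 and Gata6 were called as higher in the second set (log2 differences 0.78 and 0.73), and their list summed to 13.0 to 26.5 CPM in the first set and 23.3 to 26.9 CPM in the second. Of 7 feeder markers, Postn was called as higher and Col3a1 as lower, with sums of 31.9 to 38.1 and 24.6 to 34.1 CPM, and of 6 stem cell markers Pou5f1 and Zfp42 as higher. Their part in the differences was not tested. What parts the sets is not given in the labels, and the d1 in the descriptions concerns libraries of the second set.

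The third comparison set the alleles against each other within each library. The 2 genomes gave unequal RNA for 6 of the 7 genes, 4 with more from Cast and 2 with more from Dom. Such calls were common, since 57.1% of the 12500 autosomal genes tested were called, 28.2% as higher from Cast and 28.9% as higher from Dom. The median size of the difference, without its sign, was 0.90 on the log2 scale for the 7 genes and 0.32 for all genes tested. A share of 47.2% to 47.8% Cast fragments corresponds to equal alleles after scaling. The shares rest on fragments that cover a strain variant, and the number of variants behind each gene was not counted here.

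Mael had the largest difference of the 7, and it was towards Dom. Its Cast and Dom fragments were 10 and 58, 10 and 61, 4 and 31, and 6 and 26 in the 4 libraries of iXist-ChrX-Dom, in replicate order. In those of iXist-ChrX-Cast they were 7 and 65, 9 and 100, and 11 and 57. The Cast share was 14.7%, 14.1%, 11.4% and 18.8% in the first line and 9.72%, 8.26% and 16.2% in the second. Its extremes had Wilson 95% intervals of 4.40% to 15.0% and 8.89% to 35.3%, which cover counting error only. Every library was far below the share of equal alleles. The log2 ratio of Cast over Dom was -2.63 ± 0.17 (adjusted p = 4.92e-07, edgeR), larger in size than that of 98.1% of the genes tested. On neither allele did the lines overlap, but how many of all genes do so by allele was not counted. As CPM of all counted fragments, the Dom allele gave 1.33 to 2.54 in iXist-ChrX-Dom and 2.86 to 5.10 in iXist-ChrX-Cast, and the Cast allele 0.213 to 0.439 and 0.459 to 0.551. The values of the Cast allele rest on 4 to 11 fragments a library, and the nearest of the 2 lines, 0.439 and 0.459, on 10 and 9. The levels per allele were not tested apart from the total.

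The genes beside Mael leaned the same way. Gpa33, 34.9 kb away at lower positions, had a mean Cast share of 9.46% and a log2 ratio of -3.10 (adjusted p = 4.37e-08), and Ildr2, 15.4 kb away on the other side, 18.5% and -1.93 (adjusted p = 2.53e-05). The 57 tested genes within 5 Mb had a median log2 ratio of -0.17, which is far smaller than these values. Of 5 feeder markers tested by allele, 4 were called as higher from Dom, Col1a2 at a log2 ratio of -3.16, Col3a1 at -3.04, Dcn at -1.49 and Thy1 at -0.99, while Col1a1 was at -0.14 (adjusted p = 0.711). The summed feeder markers overlapped between the lines, as given above, and their part in the share of Mael was not tested.

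**Figure D4:**
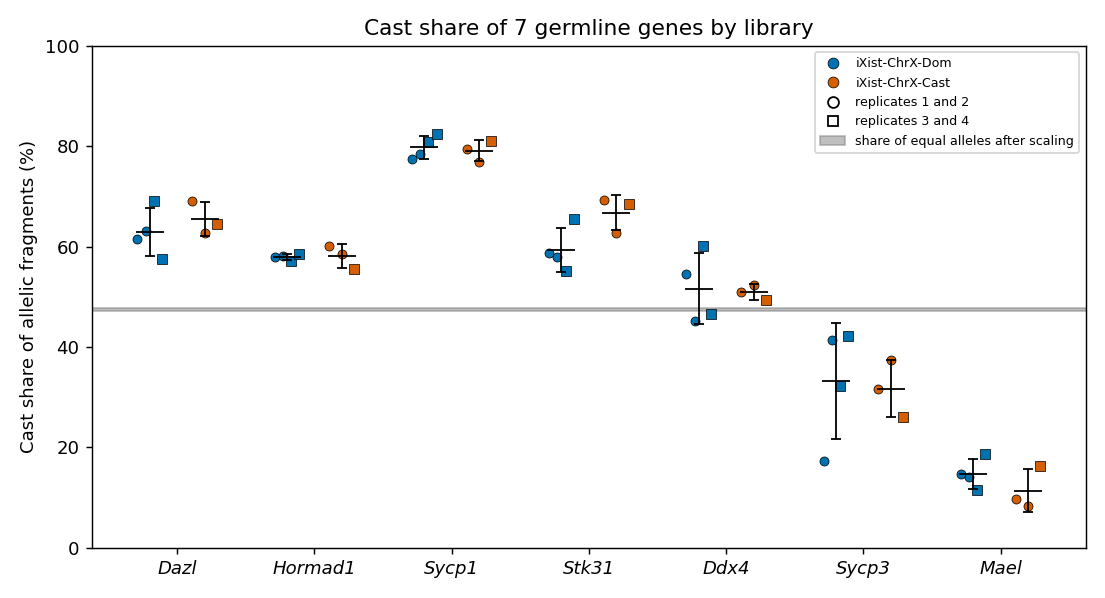
Cast share of allelic fragments (percent) of the 7 germline genes in each library. Points are libraries, with the markers of replicates 1 and 2 (circles) and 3 and 4 (squares), bars show the mean and SD of each line, and the grey band is the share of equal alleles, 47.2% to 47.8%. Sycp1 lies above the band in all libraries, at 76.9% to 82.4%, and Mael below it, at 8.26% to 18.8%.

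Sycp1 had the largest difference towards Cast. Its Cast share was 77.4%, 78.5%, 80.8% and 82.4% in iXist-ChrX-Dom and 79.5%, 76.9% and 81.0% in iXist-ChrX-Cast, in replicate order and from 219 to 394 allelic fragments a library. The libraries spread by an SD of 2.01 percentage points, and the log2 ratio was 2.08 ± 0.07 (adjusted p = 7.40e-09, edgeR). Its neighbours did not share the direction, with Tspan2 at a log2 ratio of -0.62 (adjusted p = 0.000839) and Sike1 at -0.07 (adjusted p = 0.765). Hormad1, on the same chromosome, had a far smaller difference, with Cast shares of 57.9%, 58.1%, 57.1% and 58.5% in iXist-ChrX-Dom and 60.2%, 58.6% and 55.6% in iXist-ChrX-Cast. Its log2 ratio was 0.61 ± 0.07 (adjusted p = 2.62e-05), and that of Golph3l, which begins 1.07 kb beyond it on the same strand, was 0.40 (adjusted p = 0.000878).

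Dazl and Stk31 also gave more RNA from Cast. The Cast share of Dazl ran from 57.6% to 69.1% over the 7 libraries, with a median of 63.2%, and its log2 ratio was 0.97 ± 0.10 (adjusted p = 2.06e-05, edgeR). Rftn1 and Plcl2, the tested genes on either side of Dazl, were at 0.38 (adjusted p = 0.0639) and 0.45 (adjusted p = 0.000719). Stk31 had shares of 58.8%, 58.0%, 55.1% and 65.5% in iXist-ChrX-Dom and 69.2%, 62.7% and 68.4% in iXist-ChrX-Cast, and a log2 ratio of 0.88 ± 0.11 (adjusted p = 8.49e-05). Fam221a, 5.70 kb before Stk31, was on the Dom side at -0.97 (adjusted p = 0.000794).

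Sycp3 was the other gene with more RNA from Dom. Its shares were 17.2%, 41.4%, 32.1% and 42.1% in iXist-ChrX-Dom and 31.6%, 37.5% and 26.1% in iXist-ChrX-Cast. They came from 19 to 40 allelic fragments a library, and the lowest, 5 of 29, had a Wilson 95% interval of 7.60% to 34.5%. The log2 ratio was -0.90 ± 0.22 (adjusted p = 0.00575, edgeR), and the call was lost with replicates 1 and 2 only (adjusted p = 0.0617). The overlapping Chpt1 was at -0.30 (adjusted p = 0.0286), and Gnptab, 12.3 kb before Sycp3 on its strand, at 0.80 in the direction of Cast (adjusted p = 1.12e-06).

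Ddx4 was the gene nearest to equal alleles. Its Cast share was 54.6%, 45.1%, 60.2% and 46.6% in iXist-ChrX-Dom and 51.0%, 52.4% and 49.3% in iXist-ChrX-Cast, with libraries on either side of the equal share in the first line. The share came from 202 to 311 allelic fragments a library, 59.4% to 69.9% of its count. The log2 ratio of 0.22 ± 0.10 had an adjusted p of 0.0859 in edgeR, and passed only when iXist-ChrX-Dom replicate 2 was left out (0.0404). Its neighbours Il6st and Slc38a9 were at 0.05 and -0.08 and did not pass.

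**Figure D5:**
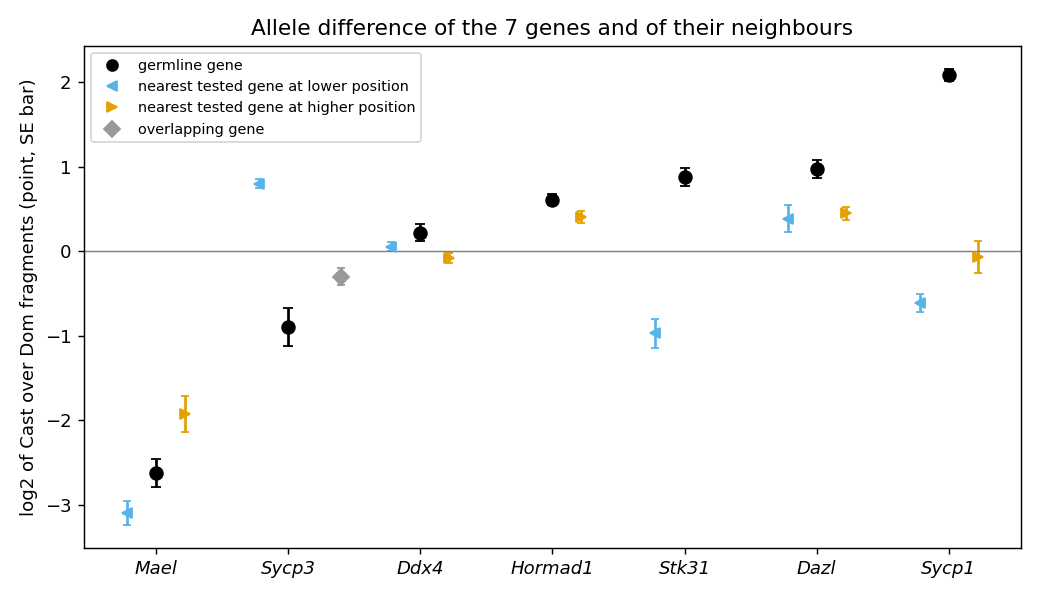
Log2 ratio of Cast over Dom fragments, with SE bars, for the 7 germline genes (black circles), the nearest tested gene on each side (triangles) and the overlapping gene (diamond), where these had enough allelic fragments. Mael and both its neighbours lie between -3.10 and -1.93, while Sycp1 at 2.08 stands above neighbours at -0.62 and -0.07.

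Whether the allele difference itself changed between the lines was tested as an interaction. None of the 7 genes passed in edgeR (and 0 in limma), while 14.5% of all genes tested passed in edgeR. At an unadjusted p under 0.05 in edgeR, 1 of the 7 passed, beside 2808 of all 12500 genes. The estimates ran from -0.43 ± 0.19 for Stk31 (adjusted p = 0.153, and 0.0568 with a replicate block) to 0.51 ± 0.41 for Mael (adjusted p = 0.556). The 44 tested genes within 5 Mb of Stk31 had a median interaction of -0.26, and the 632 others of its chromosome one of 0.01. The 57 within 5 Mb of Mael had a median of 0.20, as did the 785 others of its chromosome. The part of these regions in the estimates of Stk31 and Mael was not tested. The Cast allele of Stk31 gave 4.32 to 5.70 CPM of all counted fragments in iXist-ChrX-Dom and 6.96 to 7.29 in iXist-ChrX-Cast. Its Dom allele gave 2.50 to 3.99 and 3.10 to 4.33. With standard errors of this size, a change of allele ratio between the lines of the order of these estimates could not be told from none.

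Over the 7 libraries, some of the 7 genes varied together. The Pearson correlation of log2 CPM was 0.96 between Mael and Stk31, 0.93 between Sycp1 and Sycp3 and 0.92 between Sycp3 and Ddx4, but 0.17 between Mael and Hormad1. Between Dazl and the others it was 0.35 to 0.69. These are descriptions over 7 points that share the 2 lines and the 2 naming sets. Many genes followed most of them as closely, with 419 to 459 of 15185 genes at 0.9 or above for Mael, Sycp1, Sycp3, Stk31 and Ddx4, but 27 for Dazl and 16 for Hormad1. The closest genes were Nptx2 (1.00) and Tspan6 (0.99) for Mael, Cdh17 and Actr3 for Sycp1, Kdelc2 and Cntln for Sycp3, G6pdx and Lipt2 for Stk31, Vps29 and Ly75 for Ddx4, Xkr9 and Hmmr for Dazl, all at 0.98 or above to 2 decimals, and Mir1970 and Sez6l2 for Hormad1, both at 0.96.

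Other germline genes were read from the same fits. Of 13 piRNA and germ granule genes tested, 0 were called between the lines in edgeR or DESeq2, and their median log2 difference was -0.09. At an unadjusted p under 0.05 in edgeR, 3 of the 13 passed, beside 2638 of all 15186 genes. With a replicate block 2 were called as higher in iXist-ChrX-Dom, Tex19.1 at 0.71 (adjusted p = 0.00248) and Asz1 at 1.37 (adjusted p = 0.0216), in a fit that called 5.37% of all genes as higher and 6.45% as lower there. With the naming set as a covariate, in an edgeR fit that called 15.8% of all genes, Asz1 was called as higher (adjusted p = 0.0216). In that fit Mov10l1, at -0.37 (adjusted p = 0.0306), and Fkbp6, at -0.36 (adjusted p = 0.0475), were called as lower. Genes named here for calls only in the fits with the block or this covariate were chosen after their values were seen. Tex19.1, which is methylation-sensitive and active in mESCs, had the highest level of the 13 genes per length, at 11.1 CPM per kb, above each of the 7 germline genes. Pld6 and Tdrd5 followed at 0.604 and 0.469 CPM per kb. Among other meiosis genes, 4 of 13 tested were called as lower in iXist-ChrX-Dom and 1 as higher, beside 1.72% and 1.2% of all genes. Smc1b, a meiotic cohesin subunit, was at 20.9 ± 5.34 CPM in iXist-ChrX-Dom and 47.8 ± 4.05 CPM in iXist-ChrX-Cast, a log2 difference of -1.20 ± 0.18 (adjusted p = 0.0151, edgeR). Hormad2, a relative of Hormad1, went the other way, at 191 ± 48.3 and 83.2 ± 6.35 CPM, with a log2 difference of 1.20 ± 0.19 (adjusted p = 0.0152). Stag3, another meiotic cohesin subunit, and Zcwpw1, a histone reader in meiosis, were lower by log2 differences of -0.88 (adjusted p = 0.0124) and -1.07 (adjusted p = 0.0159), and both lie on chromosome 5, whose 964 tested genes had a median of -0.40. Syce1, a central element protein that works with Sycp1, was lower by a log2 difference of -0.62 (adjusted p = 0.0472). The highest of the list per length were Stag3 at 1.94, Hormad2 at 1.53 and Syce2, which was not called, at 1.52 CPM per kb.

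Of 9 tested genes in a further list of methylation-sensitive germline genes, Taf7l and Tuba3b were called as lower in iXist-ChrX-Dom. Taf7l, a germ cell transcription factor subunit on the X chromosome, was at 1.91 ± 0.381 and 5.23 ± 1.23 CPM, with a log2 difference of -1.45 (adjusted p = 0.0175, edgeR). Xist was induced from different X chromosomes in the lines. Tuba3b, at -1.30 (adjusted p = 0.0495), has a close copy in Tuba3a and its count is uncertain. Sohlh2 was the highest of the list at 0.758 CPM per kb and was called only with a replicate block, as higher in iXist-ChrX-Dom (log2 difference 0.44, adjusted p = 0.0430, against 0.295 without the block).

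The highest primordial germ cell factors per length were Prdm14 at 2.57, Tfap2c at 2.35 and Dppa3 at 1.84 CPM per kb, and of 7 tested only Kit, a receptor on chromosome 5, was called (log2 difference -0.53, adjusted p = 0.0216). Of 12 genes for PRC1.6 subunits and partners Tfdp1, on chromosome 8 with its median of 0.35 over 806 genes, was called, at 0.60 (adjusted p = 0.0205). With a replicate block Rnf2 was called as well, at -0.34 (adjusted p = 0.0442, against 0.130 without it). With the naming set as a covariate 1 of the 12 was called as lower in iXist-ChrX-Dom and 1 as higher. Mga was at 697 ± 16.1 and 745 ± 113 CPM in the 2 lines. Rybp was at 7.58 CPM per kb. None of 13 regulators of DNA and histone methylation was called in edgeR or DESeq2, and 0 were at an unadjusted p under 0.05. The DNA methyltransferase gene Dnmt3b was at 219 ± 5.94 and 214 ± 14.6 CPM, Uhrf1, which recruits the maintenance enzyme, at 182 ± 15.0 and 184 ± 24.7 CPM, and Tet1, a demethylation enzyme, at 26.6 CPM per kb.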

How the data were processed

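ChrRNA-seq libraries of iXist-ChrX-Dom (n = 4) and iXist-ChrX-Cast (n = 3) mESCs were analysed, grouped by the line in the labels. The authors removed ribosomal reads with Bowtie2 (2.3.2), aligned the rest with STAR (2.4.2a) to an N-masked mm10 genome, split fragments by strain variants with SNPsplit and counted them by strand over whole transcripts, introns included, with featureCounts (1.5.2). The deposited values are raw counts per gene, in total and by parental genome. The deposited tables of allelic ratios, a fraction for X-linked genes, were used only to check which allelic column is Cast: all 246 and 399 genes of these tables matched within 1e-09.

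Total counts were tested with edgeR (4.0.16) quasi-likelihood fits over all genes passing filterByExpr, scaled by TMM, with DESeq2 (1.42.0) as an alternative. Alleles were compared on autosomal genes with at least 10 allelic fragments in over 80% of samples, with the library as a block. Adjusted p-values are Benjamini-Hochberg values over all genes tested, two-sided, with a threshold of 0.05. The fits were checked on simulated data in which 200 genes had a log2 change of 1. Of these, 91.5% were recovered between lines, 87.5% between naming sets and 94.5% between alleles, but 48% for the allele difference between lines. The simulated spread was the same for every gene, and the simulation of the lines held no naming set difference, unlike these data. Same-numbered samples of the 2 lines deviated together (correlations 0.360, 0.314 and 0.513), but so did other samples of the same naming set. Correlations used log2(CPM + 0.5). Wilson intervals are at 95%.

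The 7 genes and the other gene lists were chosen with earlier results of these data known. Named genes were all 7 germline genes, in each other list the called genes (at most 5 by smallest p) and the 3 highest per length, the nearest tested neighbours, and the 2 genes most like each. No column of per-sample values was left unmapped. Gm4340, a listed marker, had no row in the tables used here.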

Additional observations from a re-analysis of the deposited data

How the results depend on the processing

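Of the 7 germline genes, the allele calls of Mael, Sycp1, Dazl, Stk31 and Hormad1 held under all 11 alternatives, and the direction of each of the 7 was the same in every alternative that gave a value. With at least 20 allelic fragments required, Sycp3 could not be tested. The number of genes called between the lines moved most: from 443 to 1098 with DESeq2, 1794 with a replicate block, 2398 with the naming set as a covariate, 1685 with replicates 1 and 2 only, 67 without chromosomes 1, 5, 8, 12 and 14, and 18 to 1206 when each library was left out, the lowest without iXist-ChrX-Cast replicate 2 and the highest without its replicate 3. The number of the 7 genes called between the lines was 2 with the naming set as a covariate, 2 with replicates 1 and 2 only, 0 without those chromosomes, where Mael is not among the genes, and 0 to 2 on leaving out a library. Leaving out a library gave 2518 to 4447 genes called between the naming sets, beside 4606 with all, the lowest without iXist-ChrX-Cast replicate 3, and 1 to 3 of the 7 genes. Signs turned only in uncalled values on leaving out a library: Hormad1 ran from -0.17 to 0.0459 between lines and from -0.23 to 0.14 between naming sets, Dazl from -0.0182 to 0.27 and Ddx4 from -0.12 to 0.0157 between naming sets. The causes were not tested. The replicate block changed no call among the 7 genes. Depth limits Sycp3 and Mael, with fewer than 110 allelic fragments in each library.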
